A study of Homo sapiens with 6 samples.

Results

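The genes described here are 9 members of the NRF2 antioxidant pathway: NFE2L2, which encodes the transcription factor NRF2, KEAP1, which encodes its inhibitor, and NQO1, GCLM, GCLC, SRXN1, TXNRD1, PGD and OSGIN1, which are known targets of NRF2. They were taken by gene symbol from a list named by function, and all 9 were found among the 17646 genes listed in the files. RNA was sequenced from MDA-MB-231 cells, an established human line of triple negative breast cancer. The cells carried either a control siRNA (siControl) or an siRNA directed at USP32, a ubiquitin-specific protease (siUSP32), and were taken 48 h after transfection, with 3 libraries in each group. Both groups are the same line after an siRNA transfection, so no untransfected cells enter the comparison. Whether replicate libraries were made from different cultures is not stated in the labels, and p-values therefore describe library-to-library spread, which may be technical.

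NRF2 is a basic leucine zipper factor that is made continuously and, in unstressed cells, held by KEAP1 for ubiquitination by a CUL3 ligase and degradation. Oxidants and electrophiles modify cysteines of KEAP1, NRF2 then accumulates, pairs with a small MAF protein and binds antioxidant response elements beside genes for glutathione synthesis, the thioredoxin system, quinone reduction and NADPH supply. Most of this control acts on the NRF2 protein, which RNA libraries do not measure, so the transcript of NFE2L2 and the transcripts of its targets are separate readouts.

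Letters of the antioxidant response element were looked for in the members' promoters, since targets of NRF2 are known to carry it. Promoter sequence came from RefSeq on GRCh38.p14, read on the gene's strand over the 250 bases before the RefSeq start site, which can lie inside the GENCODE gene bounds given below, and all 9 members had an entry. The core TGACNNNGC, searched on both strands, matched in 3 of the 9 promoters, those of GCLM, TXNRD1 and PGD, against 11% of 27305 promoters of the same length and 12% of the 9860 that belong to tested genes. The C/EBP-ATF element TGATGNAA matched in none of the 9, against 3.19% of all promoters and 1.3% of those of tested genes. The AP-1 element TGACTCA, which was added after the sequences were seen and matches the antioxidant core too where GC follows it, matched only in the promoter of OSGIN1 among the members, against 4.16% and 2.51% of the same promoters. The windows of 30 bases that hold these matches are shown because they are the members' only matches, with the matched letters in capitals. The matches in GCLM and PGD lie on the opposite strand, so their capitals read as the reverse complement of the core.

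GCLM (chr1:93909445-93909474, minus strand): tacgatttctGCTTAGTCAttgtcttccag

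TXNRD1 (chr12:104215670-104215699, plus strand): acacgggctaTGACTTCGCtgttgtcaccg

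PGD (chr1:10398853-10398882, plus strand): cctcgccgggGCAATGTCAtctaggtgctc

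OSGIN1 (chr16:83953132-83953161, plus strand): cgggcccctgcTGACTCAcgcttatgaaag

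The matches end 26 bases before the start site in GCLM, 91 in TXNRD1, 193 in PGD and 91 in OSGIN1. No match to any of the 3 patterns was found in this window for NFE2L2, KEAP1, GCLC, SRXN1 or NQO1, which says only that these letters are not in those bases. A match is a description of the sequence and not evidence that a factor binds there.

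Values were FPKM, fragment counts scaled by transcript length and library size, and were compared as log2(FPKM + 1) with limma over the 12003 genes whose mean FPKM reached 1. All 9 members passed that filter. Calls needed an adjusted p below 0.05 (Benjamini-Hochberg, over all genes tested), and differences are siUSP32 minus siControl. The FPKM of all genes summed to between 686376 and 694831 in siControl and to between 855573 and 948641 in siUSP32, so rescaling each library to the same sum (TPM) lowers every siUSP32 value, and with TPM the median difference over all genes went from -0.06 to -0.38. Read depth is unknown, and in bulk RNA fewer cells of a type and less RNA per cell cannot be told apart. USP32 itself was at 7.5, 7.48 and 8.32 FPKM in siControl and 2.0, 1.88 and 2.01 FPKM in siUSP32 (log2 difference -1.56 ± 0.07 SE, limma adjusted p = 8.57e-08). Of the markers for the line, VIM was at 1077.36 to 1715.01 FPKM, KRT8 and KRT18 were at 2353.96 FPKM or more, CD44 was at 422.88 to 426.32 FPKM in siControl and 130.77 to 138.41 FPKM in siUSP32, and EGFR at 36.95 to 38.92 and 6.31 to 7.92 FPKM. Of the receptor genes, PGR was not among the genes listed and ESR1 was at 0.09 to 0.63 FPKM. ERBB2 was at 11.72 to 12.2 FPKM in siControl and 3.54 to 3.64 FPKM in siUSP32. Of 9 listed markers of leukocytes, endothelium and fibroblasts, PTPRC, CD3E, VWF, CDH5 and DCN were at 0.25 FPKM or less and PECAM1 and PDGFRA at 1.1 FPKM or less, while CD68 was at 18.38 to 25.83 FPKM. The fibroblast gene LUM was at 31.21 to 32.45 FPKM in siControl and 7.25 to 8.1 FPKM in siUSP32. CD44, EGFR, ERBB2 and LUM were lower in every siUSP32 library than in any siControl library, and their part in the results was not tested.

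Of the 9 members 4 rose, NQO1, OSGIN1, GCLM and KEAP1, and none fell at this threshold, while 5 did not pass the test. Over all genes tested 74.6% were called, 33.3% higher and 41.3% lower, so the 4 of 9 called is a smaller share than the background, and the 4 of 9 higher (44.4%) stands beside 33.3%, shares that move with the scaling. The groups did not overlap for 5 members (the 4 that rose and PGD), against 77.8% of all genes. The rises had very different sizes. NQO1 and OSGIN1 rose 1.87-fold and 2.03-fold, and KEAP1 and GCLM 1.15-fold and 1.19-fold. The median log2 difference of the 9 was 0.04, beside -0.06 over all genes tested.

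**Figure D1:**
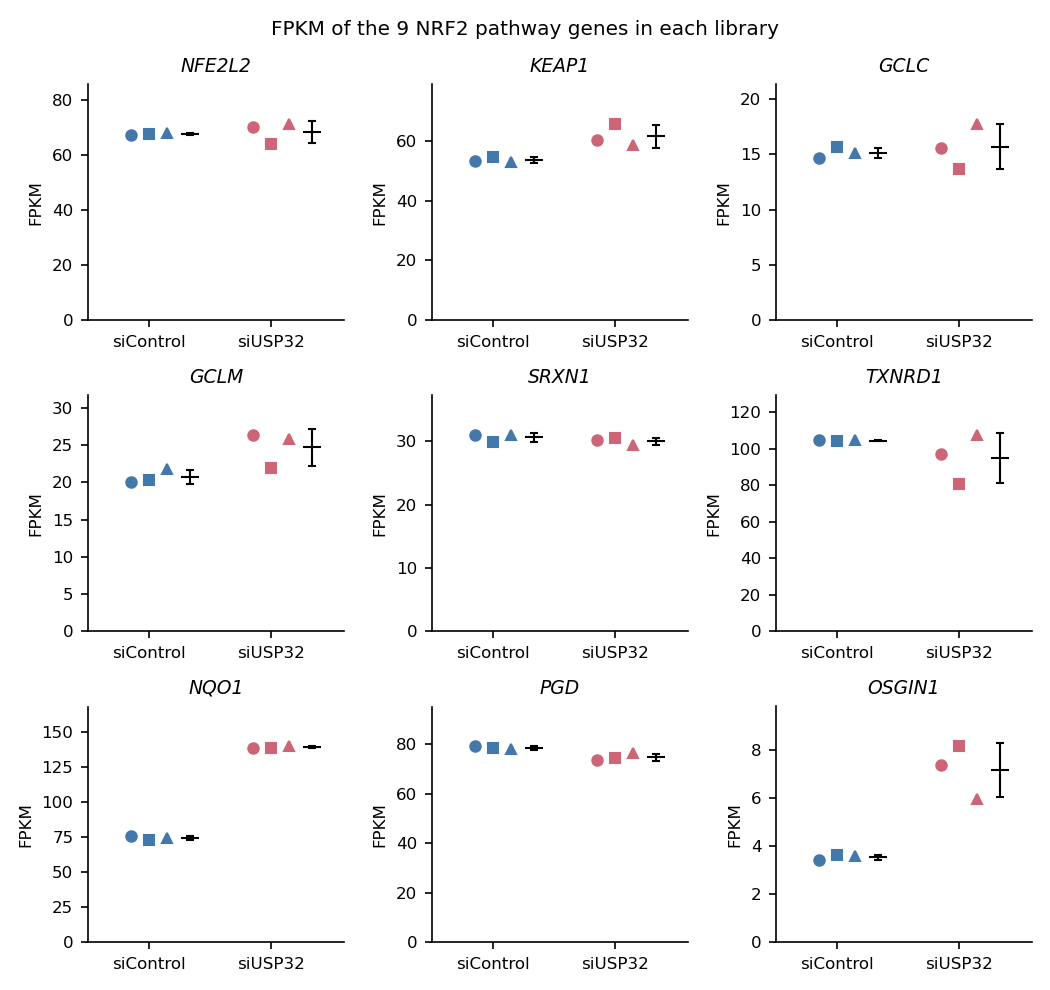
FPKM (y axis, from 0) of each member in the 3 siControl and 3 siUSP32 libraries, with circle, square and triangle for libraries 1, 2 and 3, and the mean with its SD beside them in black. NQO1 and OSGIN1 lie well above their siControl values in all 3 siUSP32 libraries, while NFE2L2, GCLC, SRXN1 and TXNRD1 overlap between the groups.

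The transcription factor gene did not differ between the groups beyond the spread of the libraries. NFE2L2 (Entrez 4780, chromosome 2, 177227595 to 177392697, minus strand of GRCh38) was at 67.36, 67.73 and 67.93 FPKM in siControl and at 70.1, 63.78 and 71.27 FPKM in siUSP32. The siUSP32 libraries lay on both sides of the siControl values, and their SD was 4.03 against 0.289 FPKM (n = 3 each). Its log2 difference was 0.01 with a 95% interval of -0.11 to 0.14 (limma adjusted p = 0.835, and p = 1 in an exact permutation test). It was called lower with TPM (-0.35, limma adjusted p = 0.00278) and higher with median-ratio scaling (0.15, limma adjusted p = 0.0148) and the correction for transcript length (0.15, limma adjusted p = 0.0135), so its direction depends on the scaling. By Euclidean distance between log2 values centred on the siControl mean over the 6 libraries, the 3 tested genes most like NFE2L2 were CCT2 (distance 0.0302), PPP2CA (0.0384) and UTP15 (0.0407).

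KEAP1, the substrate adaptor that recruits NRF2 to the CUL3 ligase, was slightly higher. KEAP1 (Entrez 9817, chromosome 19, 10486120 to 10503741, minus strand) was at 53.13, 54.5 and 52.77 FPKM in siControl and 60.1, 65.6 and 58.47 FPKM in siUSP32. Every siUSP32 library was above every siControl library. On the log2 scale the difference was 0.19 (SE 0.06, limma adjusted p = 0.0106, exact permutation p = 0.1, the smallest that 3 against 3 libraries allow). The sign turned with TPM (-0.17, called lower, limma adjusted p = 0.0131) and the call was lost after quantile normalization (0.06, limma adjusted p = 0.274).

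NQO1 encodes a cytosolic flavoenzyme that reduces quinones with NADH or NADPH and is a widely used readout of NRF2 activity. NQO1 (Entrez 1728, chromosome 16, 69706996 to 69726951, minus strand) was at 75.87, 73.05 and 74.41 FPKM in siControl and at 138.57, 138.68 and 139.89 FPKM in siUSP32. The 3 siUSP32 values had an SD of 0.732 FPKM (n = 3) and lay above every siControl value. Between groups the log2 difference was 0.89 with an SE of 0.04 (limma adjusted p = 1.55e-07, exact permutation p = 0.1). It was higher in all 16 alternatives, at 0.52 with TPM, 0.68 after quantile normalization, 1.03 with median-ratio scaling and 1.05 with the length correction. Among the 12003 genes tested 365 (3.04%) had a difference at least as high. NQO1 was the third most abundant member in siControl and the most abundant in siUSP32, where its lowest library was above the highest library of TXNRD1.

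OSGIN1, an oxidative stress-induced growth inhibitor gene, was the least abundant member and had the largest fold. OSGIN1 (Entrez 29948, chromosome 16, 83948282 to 83966332, plus strand) was at 3.42, 3.62 and 3.58 FPKM in siControl and 7.38, 8.17 and 5.97 FPKM in siUSP32. All 3 siUSP32 libraries were above siControl, with library 3 the lowest of them. The difference in log2 was 0.84 (SE 0.10, limma adjusted p = 5.48e-05, exact permutation p = 0.1), on a scale that understates folds at this level. It was higher in all 16 alternatives, from 0.53 with TPM to 1.19 after quantile normalization.

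Glutamate-cysteine ligase catalyses the first and rate-limiting step of glutathione synthesis, with a catalytic subunit from GCLC and a modifier subunit from GCLM. GCLM (Entrez 2730, chromosome 1, 93885205 to 93909456, minus strand) was at 20.06, 20.38 and 21.84 FPKM in siControl and 26.39, 21.88 and 25.82 FPKM in siUSP32. The groups touched, with siUSP32 library 2 only just above the highest siControl library. As a log2 difference this was 0.24 (SE 0.08, limma adjusted p = 0.02, exact permutation p = 0.1). The call was lost without siControl library 1 (limma adjusted p = 0.0719), siControl library 2 (0.0636), siUSP32 library 1 (0.0825) or siUSP32 library 3 (0.0537), the sign turned with TPM (-0.12, 0.309), and the length correction raised it to 0.68. Genes most like GCLM over the 6 libraries, by the same distance, were TPD52 (0.039), DYM (0.0621) and DHX35 (0.0648).

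GCLC (Entrez 2729, chromosome 6, 53497341 to 53616970, minus strand) did not pass the test. Its FPKM was 14.63, 15.61 and 15.06 in siControl and 15.52, 13.69 and 17.73 in siUSP32. The lowest and the highest of the 6 values were both siUSP32 libraries. Its log2 difference was 0.04 with a 95% interval of -0.16 to 0.24 (limma adjusted p = 0.678, exact permutation p = 0.8), an interval that does not reach the difference of NQO1. It was called lower with TPM (-0.31, limma adjusted p = 0.0331) and higher with the length correction (0.37, limma adjusted p = 0.00111).

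SRXN1 encodes sulfiredoxin, which repairs over-oxidized peroxiredoxins, and TXNRD1 the cytosolic selenoprotein that reduces thioredoxin with NADPH. SRXN1 (Entrez 140809, chromosome 20, 646615 to 653370, minus strand) was at 31.05, 29.85 and 30.98 FPKM in siControl and 30.16, 30.57 and 29.47 FPKM in siUSP32. These 6 values overlapped closely, and the log2 difference was -0.03 with a 95% interval of -0.14 to 0.08 (limma adjusted p = 0.647, exact permutation p = 0.3). With TPM it was called lower (-0.39, limma adjusted p = 0.000296).

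TXNRD1 (Entrez 7296, chromosome 12, 104215779 to 104350305, plus strand) was the most abundant member in siControl, at 104.6, 104.22 and 104.68 FPKM, and was at 96.89, 80.7 and 107.65 FPKM in siUSP32. The siControl libraries were nearly identical and the siUSP32 libraries spread on both sides of them, with an SD of 13.6 against 0.246 FPKM (n = 3 each). On the log2 scale the difference was -0.14 with a 95% interval of -0.35 to 0.06 (limma adjusted p = 0.178, exact permutation p = 0.4). It was called lower without siUSP32 library 3 (-0.24, limma adjusted p = 0.018), with TPM (-0.51, 0.00335) and after quantile normalization (-0.36, 0.00571), and higher with the length correction (0.20, 0.0279).

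PGD encodes 6-phosphogluconate dehydrogenase, the second NADPH-producing enzyme of the pentose phosphate pathway. PGD (Entrez 5226, chromosome 1, 10398592 to 10420144, plus strand) was at 79.3, 78.33 and 77.84 FPKM in siControl and 73.61, 74.19 and 76.24 FPKM in siUSP32. Every siUSP32 library was below every siControl library, by a small margin. The log2 difference of -0.07 ± 0.04 (SE) did not pass the test (limma adjusted p = 0.172, exact permutation p = 0.1). It was called lower with TPM (-0.44, limma adjusted p = 0.000135), under quantile normalization (-0.26, 0.0005) and in the length-corrected fit (-0.19, 0.00309), and its sign turned with median-ratio scaling (0.07, 0.202).

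**Figure D2:**
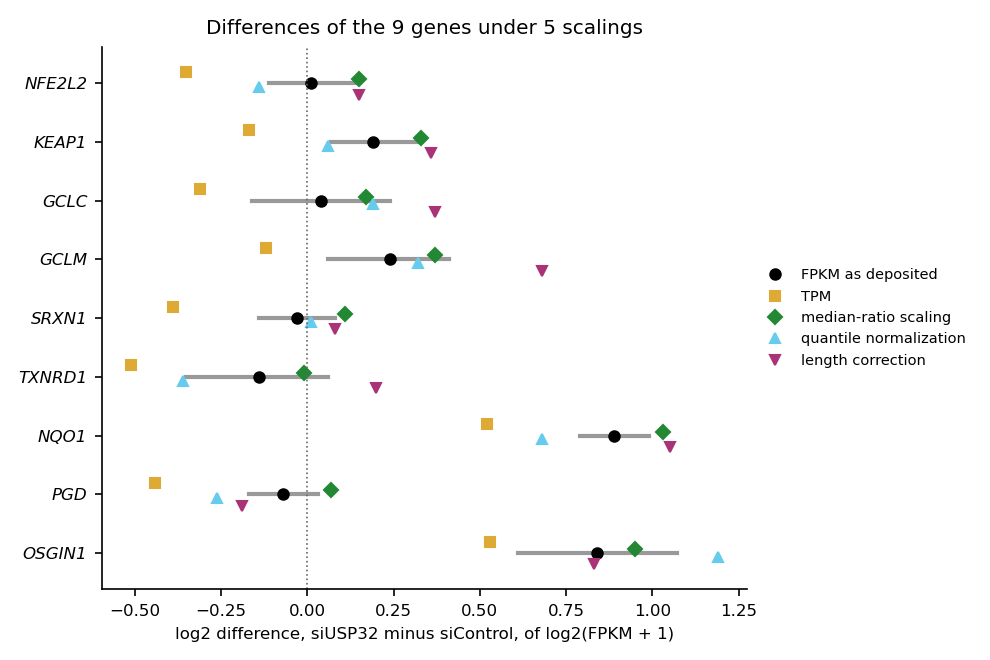
Log2 difference of each member (x axis, siUSP32 minus siControl) with FPKM as deposited (black circle, with the 95% limma interval as a grey bar) and with 4 other scalings. NQO1 and OSGIN1 are to the right of 0 under all 5, while the other 7 members fall on both sides of it.

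Of the members only NQO1 and OSGIN1 kept their call and direction in every alternative run. With TPM these 2 were higher and 6 were lower (66.7%), with GCLM not passing, beside 14.4% of all genes higher and 62.2% lower. With the length correction 7 were higher (77.8%) and 1, PGD, was lower, beside 44.7% of all genes higher and 28.5% lower. Under quantile normalization 3 were higher (33.3%) and 2 lower (22.2%), beside 43.8% of all genes higher and 30% lower. With median-ratio scaling 5 were higher (55.6%) and 0 lower, beside 40.9% and 34.7% of all genes. The length correction moved the median of all genes by 0.18, to 0.11, and quantile normalization moved it by 0.16, to 0.10. Ratios within a library do not change with the scaling of that library. The FPKM ratio of NQO1 to NFE2L2, chosen after the values were seen and given with no test, was 1.13, 1.08 and 1.1 in siControl and 1.98, 2.17 and 1.96 in siUSP32. That of OSGIN1 to NFE2L2 was 0.0508, 0.0534 and 0.0527 in siControl and 0.105, 0.128 and 0.0838 in siUSP32. Both ratios were higher in each siUSP32 library than in any siControl library.

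The SD was larger in siUSP32 than in siControl for 7 of the 9 members, SRXN1 and NQO1 being the exceptions. Library 2, which had the highest FPKM sum (948641), was the lowest of its group for 4 members (NFE2L2, GCLC, GCLM and TXNRD1) and the highest for 3 (KEAP1, SRXN1 and OSGIN1). Library 3 had the lowest sum of its group (855573) and was the highest for 5 members (NFE2L2, GCLC, TXNRD1, NQO1 and PGD). The part of these sums in the members' values was not tested. Without siUSP32 library 2 the same 4 members were called, and the log2 differences of NQO1 and OSGIN1 were 0.89 and 0.75. As levels, in FPKM and so per length, the order in siControl was TXNRD1, PGD, NQO1, NFE2L2, KEAP1, SRXN1, GCLM, GCLC and OSGIN1, and no neighbours overlapped over the 3 libraries. In siUSP32 NQO1 moved to the top, the rest kept their order, and NFE2L2 and KEAP1 were the only neighbours that overlapped.

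Members were also set against a partner gene by the FPKM ratio within each library, for 8 pairs. In 7 of the pairs the ratios of the groups did not overlap, with an exact 2-sided permutation p = 0.1 each, the smallest the design allows, and p = 0.114 after Benjamini-Hochberg adjustment over the 8 pairs, so none passed 0.05. The widest shift was that of NFE2L2 against NFE2L1, which encodes the related factor NRF1, made as a protein anchored in the endoplasmic reticulum membrane. The ratio was 1.04, 1.04 and 1.02 in siControl and 4.81, 4.59 and 4.85 in siUSP32, a 4.6-fold shift. The change lay in NFE2L1, which fell 4.55-fold from 65.5 ± 1.09 to 14.4 ± 0.433 FPKM (SD, n = 3, limma adjusted p = 2.95e-09), while NFE2L2 was not called. BACH1 is a repressor that competes with NRF2 for the same elements. Against BACH1, NFE2L2 went from ratios of 8.97 to 9.29 to ratios of 11.6 to 13.8. The log2 shift of 0.44 was 0.38 with a pseudocount of 1, and 0.01 with the length correction, which uses that pseudocount.

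The NFE2L2 to KEAP1 ratio was 1.27, 1.24 and 1.29 in siControl and 1.17, 0.972 and 1.22 in siUSP32, a factor of 0.88. KEAP1 against CUL3, the ligase scaffold, went from 1.31 to 1.48 in siControl to 1.69 to 2.26 in siUSP32, a factor of 1.37. The log2 shift of that pair was 0.45, or 0.04 with the length correction. The subunit ratio of GCLM to GCLC went from 1.37, 1.31 and 1.45 to 1.7, 1.6 and 1.46, where the lowest siUSP32 library was just above the highest siControl library. GCLC against GSS, the second enzyme of glutathione synthesis, overlapped between groups (0.289 to 0.294 and 0.206 to 0.297, exact permutation p = 0.4).

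SRXN1 and TXNRD1, which did not pass the test, had partners that rose. PRDX1, the abundant cytosolic peroxiredoxin that sulfiredoxin repairs, rose 1.64-fold, and the SRXN1 to PRDX1 ratio went from 0.0306, 0.029 and 0.0289 to 0.018, 0.0176 and 0.0174. TXN, the thioredoxin that TXNRD1 reduces, rose 1.62-fold, and the TXNRD1 to TXN ratio went from 0.0673 to 0.0712 down to 0.0302 to 0.0472. With the length correction the log2 shifts of these ratios were -0.27 and 0.00, against -0.74 and -0.84 without it, so the shift between TXNRD1 and TXN was absent there.

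**Figure D3:**
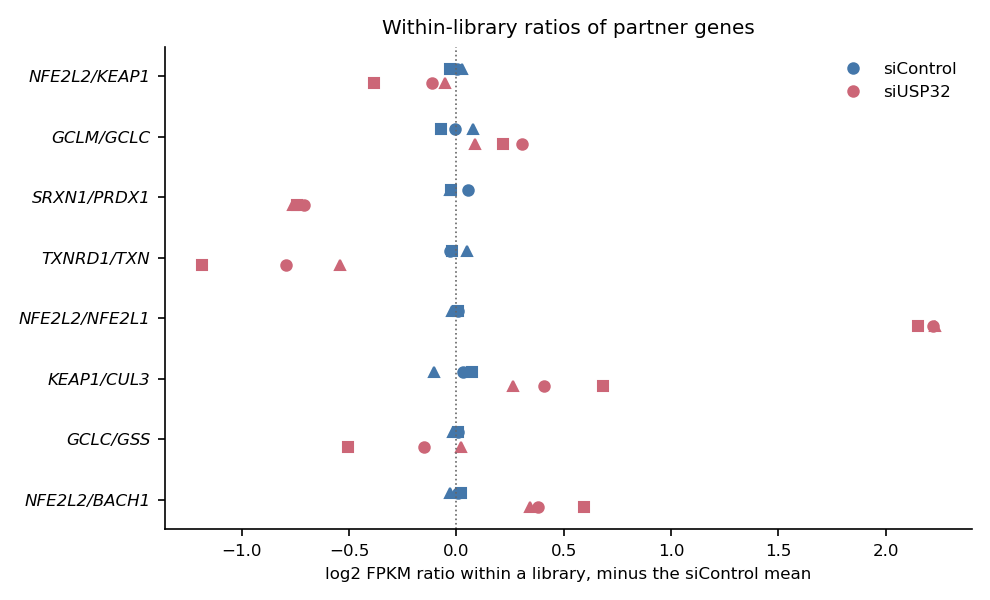
Log2 FPKM ratio of each pair within a library, minus the mean of the 3 siControl libraries (x axis), with circle, square and triangle for libraries 1, 2 and 3 of siControl (blue) and siUSP32 (red). The NFE2L2 to NFE2L1 ratio lies above 2 in all 3 siUSP32 libraries, and SRXN1 and TXNRD1 lie to the left of 0 against their partners.

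The members were then read beside 122 other genes of the pathway and of redox metabolism, in 6 lists, of which 110 were tested. In this set 70 rose, 24 fell and 16 were not called, and the median log2 difference was 0.34 beside -0.06 over all genes. Over all genes tested 33.3% were higher and 41.3% lower, and the counts of each list stand beside these shares. With TPM 39 rose and 40 fell, beside 14.4% and 62.2% of all genes, and the median was 0.01 beside -0.38 over all genes. Up to 3 rises and 3 falls are named from each list, those of smallest adjusted p, together with the partner genes of the pairs and a few genes stated as chosen later.

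Among regulators and partners of NRF2 6 of 18 rose, the same share as over all genes (33.3%). Another 10 fell, beside 41.3% of all genes, and 2 did not pass, with a median of -0.25. With TPM 2 rose and 12 fell, beside 14.4% and 62.2% of all genes. In the length-corrected fit 8 rose and 7 fell, beside 44.7% and 28.5% of all genes. SQSTM1, whose protein p62 can sequester KEAP1, rose 2.73-fold, from 405.04, 397.31 and 394.45 FPKM to 1080.85, 1074.46 and 1115.85 FPKM. The small MAF genes MAFF and MAFK, partners of NRF2 on DNA, rose 1.91-fold and 1.37-fold, the latter with a call lost with TPM (log2 difference 0.08). NFE2L3, a further relative of NRF2, fell 4.19-fold and SYVN1, a ubiquitin ligase of the endoplasmic reticulum described to act on NRF2, fell 3.48-fold. BACH1 fell 1.33-fold, from 7.4 ± 0.151 FPKM down to 5.55 ± 0.822 FPKM (SD, n = 3; limma adjusted p = 0.00622). Its call was lost under quantile normalization (-0.06), and its sign turned in the length-corrected fit (0.14). CUL3 fell 1.19-fold (limma adjusted p = 0.0113), a call lost with median-ratio scaling (-0.11) and without siControl library 3 (limma adjusted p = 0.0531), and the length correction turned its sign (0.31).

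In the glutathione list 17 of 24 rose and 4 fell, beside 33.3% and 41.3% of all genes. The other 3 did not pass, and the median was 0.41. With TPM 9 rose and 8 fell, beside 14.4% and 62.2% of all genes, and the median was 0.06 beside -0.38 over all genes. In the length-corrected fit 13 rose and 6 fell, beside 44.7% and 28.5% of all genes. The median there was 0.21 beside 0.11 over all genes. CHAC1, which degrades glutathione and is also a known target of ATF4, rose 8.92-fold from 2.52 ± 0.506 to 22.5 ± 2.13 FPKM. The glutaredoxin gene GLRX rose 1.83-fold and GPX4, the selenoprotein that reduces lipid peroxides, 2.2-fold. ABCC1, an exporter of glutathione conjugates, fell 6.49-fold, from 7.94, 7.69 and 7.49 FPKM to 1.2, 1.15 and 1.21 FPKM, GPX8 fell 1.25-fold and LANCL1 1.37-fold, the latter 0.00 with the length correction. SLC7A11, the light chain of the cystine importer and a known NRF2 target, was named after its values were seen. It was under the filter and not tested, at 0.49, 0.57 and 0.53 FPKM in siControl and 0.45, 0.29 and 0.5 FPKM in siUSP32. The heavy chain gene SLC3A2, named in the same way, fell 1.14-fold (log2 difference -0.19, limma adjusted p = 0.00462), a call lost with median-ratio scaling (-0.05).

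The thioredoxin and peroxiredoxin list had the highest share of rises, with 15 of 17 higher, 0 lower and 2 not past the test (median 0.41). Over all genes 33.3% were higher and 41.3% lower. With TPM the split was 8 higher to 2 lower, beside 14.4% and 62.2% of all genes. In the length-corrected fit it was 11 to 1, beside 44.7% and 28.5% of all genes. PRDX1 rose from 1014.2, 1029.77 and 1070.55 to 1676.59, 1741.56 and 1692.27 FPKM. PRDX6 rose 1.48-fold and PRDX4, the peroxiredoxin of the secretory pathway, 1.58-fold. TXNIP, an inhibitor of thioredoxin named after its values were seen, rose 1.6-fold.

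The list for NADPH supply is not limited to NADPH-producing enzymes and takes in pentose phosphate genes such as RPIA and TKT. Of its 17 tested genes 10 rose and 4 fell, beside 33.3% and 41.3% of all genes. The other 3 did not pass, and the median was 0.40. The 10 include ALDH1L2, named after its values were seen, with means of 0.317 FPKM in siControl and 1.81 FPKM in siUSP32. It reached the filter only through siUSP32, so its rise is no independent count. With TPM 7 genes of the list rose and 6 fell, beside 14.4% and 62.2% of all genes. In the length-corrected fit 9 rose and 3 fell, beside 44.7% and 28.5% of all genes. The median there was 0.26 beside 0.11 over all genes. MTHFD2, the mitochondrial folate enzyme and a known ATF4 target, rose 3.12-fold. The pentose phosphate genes RPIA and TKT rose 2.12-fold and 2.13-fold, the latter from 142.53, 142.58 and 132.13 to 282.2, 329.83 and 277.0 FPKM, and ME1, the cytosolic malic enzyme gene named after its values were seen, rose 2.16-fold. IDH1, the cytosolic NADP-dependent isocitrate dehydrogenase, fell 1.5-fold, and the NAD kinases NADK and NADK2, which make NADP, fell 1.4-fold and 1.79-fold. Among pentose phosphate genes PGD, at a log2 difference of -0.07, was not called, and RPIA and TKT rose. Of others in that pathway, named after their values were seen, RPE was not called either (-0.02, limma adjusted p = 0.77). RPE was called lower with TPM (-0.38, limma adjusted p = 0.00281). Its sign turned with median-ratio scaling (0.11) and with the length correction (0.05). PGLS and TALDO1 rose 1.46-fold each, and PGLS lost its call with TPM and with the length correction.

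Of 25 other genes described as NRF2 targets 17 rose and 4 fell, beside 33.3% and 41.3% of all genes. The other 4 did not pass, and the median was 0.39. With TPM 9 rose and 8 fell, beside 14.4% and 62.2% of all genes, and the median was 0.02 beside -0.38 over all genes. In the length-corrected fit 14 rose and 5 fell, beside 44.7% and 28.5% of all genes. The median there was 0.27 beside 0.11 over all genes. The aldo-keto reductase AKR1B1 rose 2.33-fold from 1261.84, 1243.5 and 1238.71 to 2899.99, 2980.49 and 2859.33 FPKM. AKR1C1 rose 2.97-fold, a value that is uncertain because the AKR1C genes are near-identical and can share reads, and the lipase gene ABHD4 rose 2.17-fold. PIR, which encodes pirin and was named after its values were seen, rose 3.09-fold from 2.73, 3.3 and 2.97 to 9.21, 9.27 and 9.31 FPKM. HMOX1, heme oxygenase, also named after its values were seen, rose from 9.55 ± 0.556 FPKM up to 11.5 ± 0.999 FPKM (SD, n = 3; limma adjusted p = 0.0191). Its call was lost with TPM (-0.10), with the length correction (0.10) and without siControl library 1 (limma adjusted p = 0.0842). The exporters ABCC3 and ABCC4 fell 3.21-fold and 5.19-fold and EPHX1, a microsomal epoxide hydrolase, 2.24-fold.

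Of 9 genes for superoxide and peroxide handling 5 rose and 2 fell, beside 33.3% and 41.3% of all genes. The other 2 did not pass, and the median was 0.47. With TPM 4 rose and 4 fell, beside 14.4% and 62.2% of all genes, and the median was 0.11 beside -0.38 over all genes. In the length-corrected fit 5 rose and 1 fell, beside 44.7% and 28.5% of all genes. The median there was 0.19 beside 0.11, and under quantile normalization 0.17 beside 0.10, over all genes. SESN2, a stress-induced sestrin, rose 3.56-fold, and the superoxide dismutases SOD1 (cytosolic) and SOD2 (mitochondrial) rose 1.84-fold and 1.85-fold. PON2, a membrane-bound lactonase, fell 2.54-fold. SESN1 fell from 2.8 ± 0.162 to 2.1 ± 0.356 FPKM (SD, n = 3, limma adjusted p = 0.0162). Its call was lost in median-ratio scaling (-0.20), the length correction (-0.03) and without siControl library 1 (limma adjusted p = 0.0603), and its sign turned under quantile normalization (0.09).

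**Figure D4:**
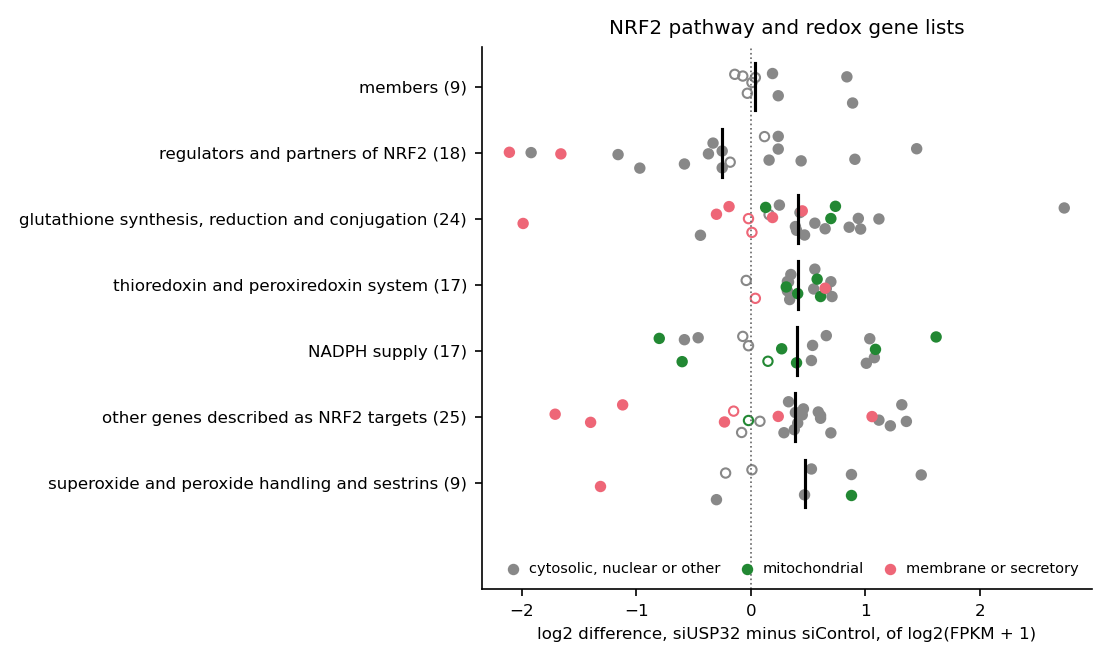
Log2 difference of every tested gene (x axis) in the members and in the 6 lists (rows, number tested in brackets), filled where called, with the list's median as a black bar and colour for the location of the protein. Genes for membrane or secretory proteins make up most of the points left of -1, and the members lie between -0.14 and 0.89.

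The 9 members encode cytosolic or nuclear proteins, and the other pathway genes were also read by where their proteins are. Each gene was given a single place by list, so the split is approximate. NFE2L1 counted as membrane, and its relative NFE2L3 and PRDX5 as cytosolic, nuclear or other. Over all genes tested 33.3% rose and 41.3% fell. Of the 19 tested genes for membrane or secretory proteins 5 rose, 10 fell and 4 did not pass, with a median of -0.19. Of the 75 for cytosolic, nuclear or other proteins 53 rose, 12 fell and 10 did not pass, with a median of 0.41. Of the 16 for mitochondrial proteins 12 rose, 2 fell and 2 did not pass, with a median of 0.41. The 12 include ALDH1L2, which reached the filter only through siUSP32. With the length correction the medians were -0.26, 0.24 and 0.37 in that order, and with TPM -0.55, 0.06 and 0.07, and the membrane and secretory genes were the lowest of the 3 sets by median under all 3 treatments of the values. The difference between these sets was not tested. The members' median of 0.04 lay below that of the other cytosolic and nuclear genes with FPKM as deposited, and with the length correction it was 0.36, above their 0.24.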

How the data were processed

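The deposited values are FPKM with 2 decimals, calculated by the authors, per the file headers, 1 table per library and 17646 genes each. The submitters' processing notes name GRCh38.p13 as the build. Aligner, counting tool, annotation and strand handling: not given in the sources used here, so reads of overlapping antisense genes cannot be told apart. FPKM is no count, so no count model was used. Read depth is unknown and low values gave no clean steps of single reads, so no counting intervals are given. Within groups 0.45% to 0.783% of genes had the same value in a pair of libraries, so none was a copy.

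The fit used log2(FPKM + 1) of genes averaging 1 FPKM or more, limma 3.58.1 (R 4.3.3), its trend option and 2-sided tests. It was checked on simulated data with few changed genes and no group difference in FPKM sums built in. That check therefore does not cover the choice of scaling in these libraries. Intervals are limma's 95%. Positions and transcript lengths are from GENCODE 29 (principal transcript with the longest coding sequence), a length that need not be the one the authors divided by. The length correction removed from each library a loess curve (span 0.5) of its deviation from the mean of the 6 libraries against log2 length. The corrected values were log2(FPKM + 1), for the ratios too, while the uncorrected ratios used FPKM with no pseudocount. A ratio planned for PGD is not reported here, for a reason other than its value. Permutation tests used scipy 1.17.1. Alternatives also covered a pseudocount of 0.1, no filter, a minimum mean FPKM of 5, TPM, median-ratio and quantile scaling, no trend, array weights, the replicate block and each library left out. The members, lists, pairs and the rule for named genes (up to 3 rises and 3 falls a list with the smallest adjusted p) were chosen with earlier results of these data known.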

Additional observations from a re-analysis of the deposited data

How the results depend on the processing

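NQO1 and OSGIN1 were higher and called in all 16 alternatives. Genes called over the whole table numbered 4001 higher and 4956 lower, and 1723 and 7462 with TPM. Rises outnumbered falls in the other scalings, with 4912 and 4166 under median-ratio scaling, 5253 and 3604 under quantile normalization and 5347 and 3406 in the length-corrected fit, and also at a minimum mean FPKM of 5 (3577 and 3068). Members higher went from 4 to 2 with TPM and 7 with the length correction, and members lower from 0 to 6 (TPM), 2 (quantile normalization) and 1 (length correction). Leaving out a library gave 0 to 1 lower, and 3 to 4 higher. Other pathway genes were 70 higher and 24 lower, and 39 and 40 with TPM.

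With TPM the log2 difference turned for NFE2L2 (-0.35), KEAP1 (-0.17), GCLC (-0.31), GCLM (-0.12), GSS (-0.11) and HMOX1 (-0.10). After quantile normalization it turned for NFE2L2 (-0.14), SRXN1 (0.01) and SESN1 (0.09), and with median-ratio scaling for SRXN1 (0.11), PGD (0.07) and RPE (0.11). With the length correction it turned for SRXN1 (0.08), TXNRD1 (0.20), CUL3 (0.31), BACH1 (0.14) and RPE (0.05). The difference of LANCL1 was 0.00 there. Over the libraries left out NFE2L2 ranged from -0.02 to 0.06 and GCLC from -0.05 to 0.13. The log2 ratio shift of a pair with the length correction was 0.31 for GCLM/GCLC, -0.27 for SRXN1/PRDX1, 0.00 for TXNRD1/TXN, 1.82 for NFE2L2/NFE2L1 (2.12 with a pseudocount of 1), 0.04 for KEAP1/CUL3, 0.02 for GCLC/GSS and 0.01 for NFE2L2/BACH1. These corrected shifts also carry the pseudocount of 1, which alone gave 0.38 for NFE2L2/BACH1. The cause of these changes was not tested.

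Deviations of same-numbered libraries correlated across genes at -0.0766, 0.0706 and 0.119. Libraries 2 and 3 of siControl correlated best with their own number and library 1 did not. All these correlations were weak, so they cannot tell whether the numbers pair the libraries. With the replicate block 4016 genes were higher and 4979 lower, and the same 4 members were called. Counting precision could not be given, since depth is unknown.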
